A study of Rattus norvegicus with 43 samples.

Results

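The lungs of female Sprague-Dawley rats given 9-cis-retinoic acid (9cRA) were compared with the lungs of rats given diet only. The comparison rests on 4 arrays of 9cRA lung and 3 arrays of diet lung, 7 of the 43 arrays in the study, and on all 8740 probe sets that are not controls, of 8799 on the array. Treatment began at 100 days of age and lasted 7 days, and 9cRA was mixed into the diet at 100 mg per kg diet. Further lungs came from rats gavaged with Targretin (bexarotene), 60 mg per kg of body weight (3 arrays), or fed 4-hydroxyphenylretinamide (4HPR) at 782 mg per kg diet (4 arrays), and liver and mammary gland were measured under the same treatments. All rats were of 1 sex and 1 outbred strain, the tissue was normal lung, and each array took total RNA of 1 sample. Whether arrays of 1 group stand for different rats is not in the labels, so the p-values measure only the spread between these arrays, which may be technical.

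9-cis-retinoic acid is a form of retinoic acid that binds both the retinoic acid receptors (RARs) and the retinoid X receptors (RXRs). These nuclear receptors sit on DNA as pairs, and RXR is also the partner of the receptors for thyroid hormone, vitamin D, fatty acids (PPARs) and oxysterols (LXRs), so an RXR ligand can reach genes of lipid handling as well as classical retinoid genes. In lung, retinoids are stored in lipid-laden fibroblasts of the alveolar wall and are known for their part in alveolar formation and in the differentiation of airway epithelium. The lungs were measured as whole tissue, so fewer cells of a type and less RNA per cell cannot be told apart.

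Surfactant protein C, the defining product of alveolar type II cells, had a signal of 89337 to 142156 in 9cRA lung and 80602 to 95991 in diet lung, against 191.3 to 1021.7 in diet liver. Scgb1a1, the secretory protein of airway club cells, lay between 16057 and 34238 in 9cRA lung and between 22700 and 23956 in diet lung, so both groups carried the markers of the labelled organ. Array 2 of the diet group stood apart from the other diet arrays. Its log2 signals correlated at r = 0.901 and 0.912 with diet arrays 3 and 4, which correlated at 0.975 with each other, and its highest correlation was with an array of 4HPR lung (r = 0.965). With the 4 arrays of 9cRA lung diet array 2 correlated at 0.913 to 0.944, above both values within its own group. Some other arrays also had their best match outside their own group. Array 4 of 9cRA lung correlated best with an array of 4HPR lung (r = 0.959, against a mean of 0.94 within its group). Array 2 of Targretin lung did so with an array of 9cRA lung (r = 0.861, against a mean of 0.845). For diet array 2 the mean within its group was 0.906. The signals of 23 liver genes summed to 78723 on diet array 2, to 18101 and 20787 on diet arrays 3 and 4, and to between 32014 and 40023 on the 9cRA arrays. Its Cyp26b1 signal lay in the range of 4HPR lung too, as given below. It is kept under its label, which may be wrong and was not tested in any other way; if it is wrong, every comparison with diet lung is affected. Values without it are given where a call or a direction depended on it and for the genes it moved most. The ratio of 3′ to 5′ actin probe sets, a measure of RNA integrity, was 1.24 to 1.57 in 9cRA lung and 1.28 to 1.54 in diet lung (exact permutation test, two-sided p = 0.8). Array 2 of Targretin lung stood apart on this measure, at 5.46 against 1.03 to 1.63 on every other lung array, with a ratio of 2.54 for Gapdh and the lowest array weight, 0.16. The median signal was 506.9 to 592.5 in 9cRA lung and 466.2 to 512.2 in diet lung (exact permutation test, two-sided p = 0.0857).

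No single transcript passed the test. Of 5935 probe sets with enough signal to be tested, 0 (0%) had an adjusted p under 0.05 in limma with Benjamini-Hochberg adjustment, and the smallest adjusted p was 0.108. At an unadjusted p under 0.05 there were 656 (11.1%), of which 356 were higher and 300 lower in 9cRA lung. The 4 arrays of 9cRA lung lay wholly above the 3 diet arrays for 479 probe sets (8.07%) and wholly below them for 333 (5.61%), so 59% of the separated probe sets were on the higher side. That split depended on the scaling: after quantile normalization 353 were separated upwards and 424 downwards, with 45.4% on the higher side, and the median difference over all probe sets moved from 0.066 to -0.007 on the log2 scale. Of the separated probe sets, 328 were higher and 303 lower under both scalings, and 0 changed side. Over all probe sets 56.7% had a difference above 0. The counts for gene lists below use the brightest probe set of each gene and are to be read against these shares: 8.07% separated upwards, 5.61% downwards and 11.1% at an unadjusted p under 0.05. Of 42 named genes with several probe sets tested, 14 had probe sets on both sides of 0.

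Without diet array 2 the same test passed 38 probe sets (0.64%), 29 higher and 9 lower in 9cRA lung. Of these, 16 had at least 4 times more signal in diet liver than in diet lung, and all 16 were higher; the remaining 22 comprised 13 higher and 9 lower. Weighting each array by its quality passed 964 probe sets (16.2%), 494 higher and 470 lower, and these included all 38. Diet arrays 2, 3 and 4 had weights of 0.51, 1.56 and 5.02, so the weighted diet mean rests mostly on diet array 4. Since the weights also play down diet array 2, this fit is no independent check of the fit without it. For Scd, Per2, Scnn1a, Dnaja1, Atp1b1 and Adrb3, described below, the smallest adjusted p over the alternatives was 0.000511 to 0.000918 and the largest 0.92, always with the same direction. In the plot of both sets of differences, probe sets rich in liver leave the diagonal upwards, while Per2, Scd, Scnn1a and Dnaja1 lie near it.

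**Figure D1:**
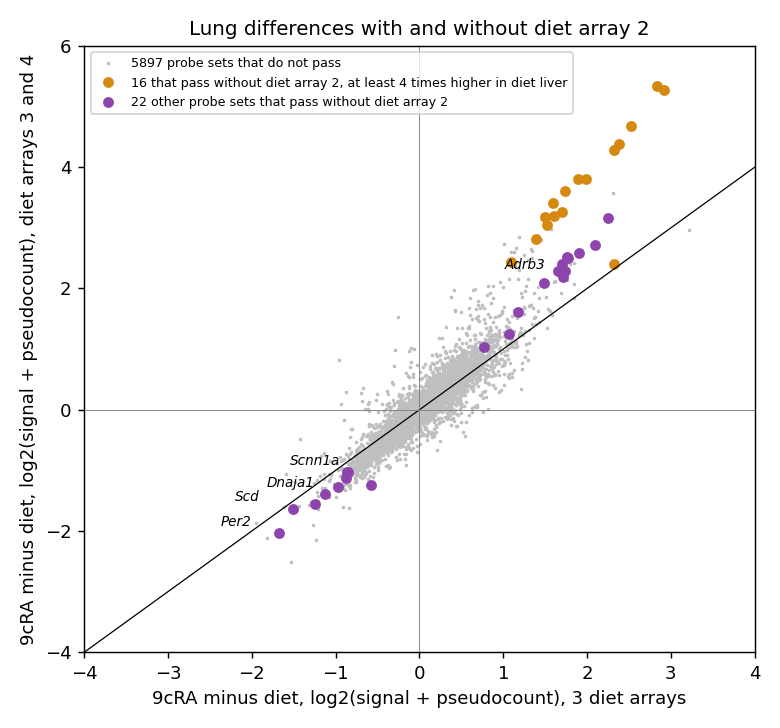
Each point is 1 of 5935 probe sets; the horizontal axis is the difference between 9cRA and diet lung on the log2(signal + pseudocount) scale with all 3 diet arrays, and the vertical axis the same difference with diet arrays 3 and 4 only. Orange points are the 16 passing probe sets with at least 4 times more signal in diet liver, purple points the 22 other passing probe sets, and the line marks equal values.

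The retinoid receptors themselves differed little. Rara, the alpha receptor for retinoic acid, had signals of 6799, 6144.7, 5405.6 and 5712.8 in 9cRA lung and 4409.1, 4427.9 and 5408.5 in diet lung, a difference of 0.34 ± 0.19 (log2, standard error) that overlapped by 1 array on each side. Of its dimmer probe sets, 1 was separated upwards, at 933.7 to 1284.2 against 483.3 to 863.4 (0.59 ± 0.24), and the other differed by 0.56 with overlap. All 3 pointed the same way without passing (adjusted p of 0.405 to 0.744 in limma). Rarb, the beta receptor and a classical retinoic acid target, was below the filter on low signal, at 88.8 to 131 in 9cRA lung and 102.5 to 130.4 in diet lung. The RXR genes differed by 0.08 for Rxra, 0.32 for Rxrb and -0.05 for Rxrg, and without diet array 2 by -0.17, 0.52 and 0.25, so the sign turned for Rxra and Rxrg. Thra, the alpha receptor for thyroid hormone and an RXR partner, was higher on every 9cRA array, at 2558.6 to 3150.8 against 1865.4 to 2549.5, a difference of 0.46 ± 0.19 (adjusted p = 0.416). Pparg, the PPAR of fat storage, was lower on every 9cRA array, at 552.6 to 599.8 against 671.2 to 793.9 (-0.33 ± 0.41). Of 14 receptors and partners tested, these were the only 2 whose groups did not overlap on the brightest probe set, and the median difference of the list was 0.27, against 0.066 over all probe sets.

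The enzymes tested that make and clear retinoic acid showed no separation. Aldh1a1, which oxidises retinal to retinoic acid, lay at 15168 to 26861 in 9cRA lung and 15318 to 25156 in diet lung, and Aldh1a2, which carries out the same step, differed by -0.19 ± 0.17. Cyp26b1, which degrades retinoic acid and is induced by it in many tissues, had signals of 907.2, 560.7, 805 and 364.2 in 9cRA lung and 3280.3, 406.1 and 329 in diet lung. The high value was again diet array 2, and the difference was -0.30 ± 0.58 with that array and 0.71 without it (adjusted p of 0.868 and 0.347). Cyp26b1 was at 5781.6 to 7297.9 in Targretin lung and 3075.2 to 6683.4 in 4HPR lung. Diet array 2 thus lay within the 4HPR range, near its lower end, and below the Targretin range, and the 9cRA arrays were far below both ranges. Lpl, lipoprotein lipase, was the only 1 of the 11 retinoid enzymes and carriers tested whose groups did not overlap. It lay at 5555.6 to 8095.5 in 9cRA lung and 8638.8 to 11313.3 in diet lung (-0.38 ± 0.22), and overlapped after quantile normalization. Of 20 genes known to respond to retinoic acid, 1 was separated upwards, Ngfr (5%, against 8.07% of all probe sets). Downwards it was 1 (5%, against 5.61%), Krt19, a keratin of simple epithelia (5225.3 to 6114 against 7055.7 to 8611.4, -0.53 ± 0.18). Of the 20, 6 had a difference above 0 (30%, against 56.7%), and the median was -0.057. An unadjusted p under 0.05 was found for 4 (20%, against 11.1%), 3 of them lower.

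Stearoyl-CoA desaturase, Scd, which inserts the double bond that turns stearate into oleate, had the smallest p of all probe sets with 1 gene name. Its signals were 3928.8, 3684.8, 2763.1 and 2054.9 on the 9cRA arrays and 7335.3, 9348.3 and 9457.6 on the diet arrays, so the diet mean was 2.80 times the 9cRA mean and no array overlapped. The log2 difference was -1.51 ± 0.29 with a 95% interval of -2.14 to -0.89 (limma, adjusted p = 0.306). Without diet array 2 it was -1.63 and passed (adjusted p = 0.0445), and with array weights it passed too (adjusted p = 0.00176). Over 20 alternatives the difference lay between -1.70 and -1.33, and its adjusted p between 0.000617 and 0.92. A second, dimmer probe set of Scd differed by -1.27 and overlapped between the groups.

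**Figure D2:**
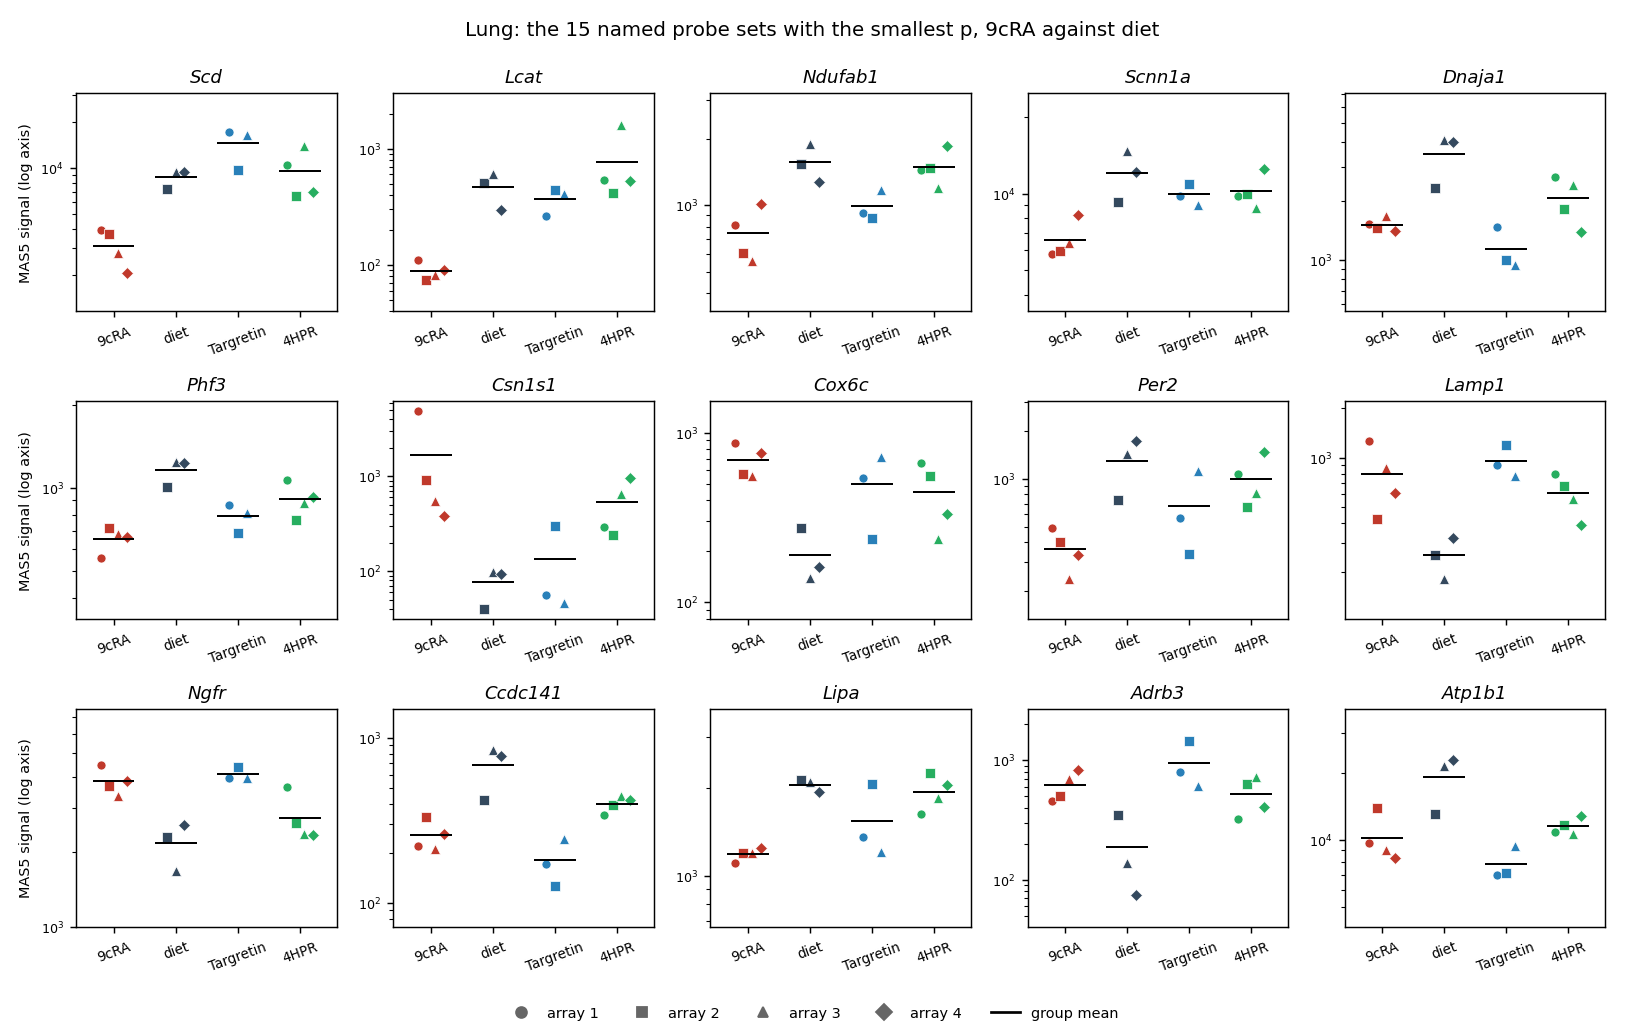
MAS5 signal on a log axis in the 14 lung arrays, by treatment, for the 15 named probe sets with the smallest p for 9cRA against diet; each symbol is 1 array and the line is the group mean. In 14 of the 15 panels all 9cRA arrays lie on 1 side of all diet arrays, Atp1b1 being the exception.

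Other enzymes of fatty acid and phospholipid synthesis also had lower signal on the 9cRA arrays. Fasn, fatty acid synthase, was at 4596.3, 4279.6, 3510.3 and 3255.1 against 5614.9, 5474.2 and 6645.4, a difference of -0.60 ± 0.17, although its second probe set differed by 0.27 and overlapped. Elovl5, which lengthens polyunsaturated fatty acids, was at 6254.3 to 7992.1 against 9105.6 to 13956 (-0.65 ± 0.18), and Chka, the choline kinase that starts phosphatidylcholine synthesis, at 745.7 to 922.9 against 1118.5 to 1530.3 (-0.61 ± 0.20), with a difference of 0.007 and overlap on its dimmer probe set. Scd2, a second desaturase, differed by -0.76 ± 0.30 and overlapped by 1 array; its other 4 probe sets differed by -0.80 to 0.04, the first of them separated. The transcription factor of this pathway, Srebf1, lay on the other side, with 680.7, 957, 818.9 and 853.5 on the 9cRA arrays and 428.8, 389.6 and 467.8 on the diet arrays (0.89 ± 0.38). Of the 16 genes tested for lipogenesis and surfactant lipid, 4 were separated downwards (25%, against 5.61% of all probe sets) and 1 upwards (6.25%, against 8.07%). The median difference was 0.003, or -0.041 without diet array 2. None of these 16 passed with all arrays (limma, adjusted p of 0.306 or more for each).

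Lecithin-cholesterol acyltransferase, Lcat, which esterifies cholesterol on lipoproteins, had the second smallest p among named probe sets. Its signals were 110.4, 74.5, 82.1 and 90 in 9cRA lung and 508.6, 600 and 297.4 in diet lung, and the diet mean was 5.25 times higher (log2 difference -1.95 ± 0.40, adjusted p = 0.306, and 0.0814 without diet array 2). Enzymes of the cholesterol pathway itself had higher signal on the 9cRA arrays. Idi1, the isopentenyl isomerase, was at 984.4, 1000.9, 1267 and 994.6 against 850.5, 480.7 and 443.8 (0.85 ± 0.27), and Fdft1, squalene synthase, at 1551.6 to 1925 against 696.7 to 1200.4 (0.93 ± 0.32). Insig1, which holds back the pathway when sterols are plentiful, was lower on 1 probe set, at 1736.1 to 2264.3 against 2531.4 to 2868.9 (-0.39 ± 0.15), but differed by 0.011 with overlap on another of similar brightness. Of 18 cholesterol genes tested, 15 had a difference above 0 (83.3%, against 56.7% of all probe sets), and the median was 0.26. Of these 18, 4 were separated upwards (22.2%, against 8.07%) and 2 downwards (11.1%, against 5.61%). Lysosomal acid lipase, Lipa, which frees cholesterol and fatty acids from stored esters, was among the most tightly grouped: 1109, 1197.6, 1196.5 and 1249.2 against 2127.7, 2097.3 and 1931.5 (-0.77 ± 0.19). Its other probe sets differed by -0.60, also with no overlap, and by -0.38 with overlap.

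The epithelial sodium channel, which draws sodium and with it fluid out of the alveoli, had lower signal for all 3 of its subunits. Scnn1a, the alpha subunit, was at 5798.1, 5965.9, 6391 and 8260.7 in 9cRA lung and 9286.5, 14739 and 12170 in diet lung (-0.85 ± 0.19, adjusted p = 0.306), and passed without diet array 2 (-1.03, adjusted p = 0.0288). Scnn1g, the gamma subunit, was also separated, at 2112.1, 1657.7, 2086.6 and 2202.3 against 2477.4, 3155.2 and 2874.8 (-0.49 ± 0.19). Scnn1b, the beta subunit, was at 225.4, 844.6, 260.2 and 457.1 against 784.8, 991.3 and 833.6, so 1 array of 9cRA lung reached into the diet range (-1.07 ± 0.45). The sodium pump that completes this transport showed the same side for its beta-1 subunit. Atp1b1 was at 9733.6, 13932, 8977 and 8347.5 against 13085, 21394 and 22685 (-0.88 ± 0.22, adjusted p = 0.312), with 1 array overlapping, and passed without diet array 2 (-1.13, adjusted p = 0.0268). Its other probe sets differed by -0.97 and -0.77. Slc12a2, the cotransporter that brings sodium and chloride into the cell, was separated downwards on 1 probe set (-0.80 ± 0.30), while its others differed by -0.08 and 0.03. The water channels Aqp1 and Aqp5 differed by -0.03 and 0.11. Of the 25 transport genes tested, 3 were separated downwards (12%, against 5.61% of all probe sets) and 2 upwards (8%, against 8.07%), with a median of 0.056. Among markers of alveolar cells, 0 of 8 for type I cells were separated, although Pdpn, their podoplanin, overlapped at a difference of -0.46 ± 0.19. Of 11 markers for type II cells, 1 was separated upwards (9.09%, against 8.07% of all probe sets) and 0 downwards.

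Genes of the circadian clock had the lowest median of the lists with 10 or more genes tested, -0.41 over 10 genes. Per2, the period gene that represses its own activators, was at 490.6, 402.2, 235 and 335.4 in 9cRA lung and 734.2, 1421.7 and 1723.3 in diet lung. The diet mean was 3.53 times higher, the difference was -1.68 ± 0.39 (adjusted p = 0.306), and without diet array 2 it was -2.03 and passed (adjusted p = 0.0399). Bhlhe41, a repressor of the same loop, was at 551.9, 815.7, 639.3 and 541.5 against 972.7, 1299.3 and 1189.2 (-0.83 ± 0.22), again with no overlap. Its close relative Bhlhe40 (-0.54 ± 0.21) and the nuclear receptor Nr1d2 (-0.64 ± 0.28) overlapped. Dbp, an output gene of the clock, differed by -0.28, and Nr1d1, Tef and Hlf by 0.15, 0.11 and 0.37. In all, 2 of 10 were separated downwards (20%, against 5.61% of all probe sets), 0 upwards, and 4 had an unadjusted p under 0.05 (40%, against 11.1%). In liver, where the own fit of that organ could be used, Per2 fell by 2.06 on the log2 scale with 9cRA (limma, adjusted p = 0.00655). The hour of tissue collection is not given in the sources used here, and its part in these values was not tested.

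Heat shock genes and chaperones were mostly on the lower side. Dnaja1, a cochaperone of HSP70, was at 1531.1, 1455.5, 1672 and 1417.5 against 2321, 4104 and 4014.6 (-1.13 ± 0.25, adjusted p = 0.306), and passed without diet array 2 (-1.40, adjusted p = 0.0259). Its second probe set was separated as well, at -0.57. Hsph1, the HSP110 chaperone that reactivates aggregated protein, was at 1879.9, 1507.8, 1474.1 and 1546.7 against 2154.4, 2518.4 and 3168.9 (-0.68 ± 0.20), and its second probe set was separated at -0.69. Cryab, a small heat shock protein, was lower at 5293.4 to 6061.4 against 6511.7 to 11465 (-0.66 ± 0.26), and Canx, the calnexin of glycoprotein folding, at 7818.1 to 10466 against 10693 to 15551 (-0.51 ± 0.21), with -0.50 to 0.23 on its other 4 probe sets. Hspb2 and Hspb6, small heat shock proteins of muscle, lay on the higher side with 1537.3 to 2438 against 917.9 to 1463.2 (0.65 ± 0.27) and 889.9 to 1995.7 against 692 to 841.7 (0.61 ± 0.25), the second probe set of Hspb6 overlapping at 0.06. Of 31 genes tested, 4 were separated downwards (12.9%, against 5.61% of all probe sets) and 2 upwards (6.45%, against 8.07%), 9 had an unadjusted p under 0.05 (29%, against 11.1%), 7 of them lower, and the median was -0.15. The plot of sodium channel, clock, chaperone and fatty acid genes shows these signals array by array.

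**Figure D3:**
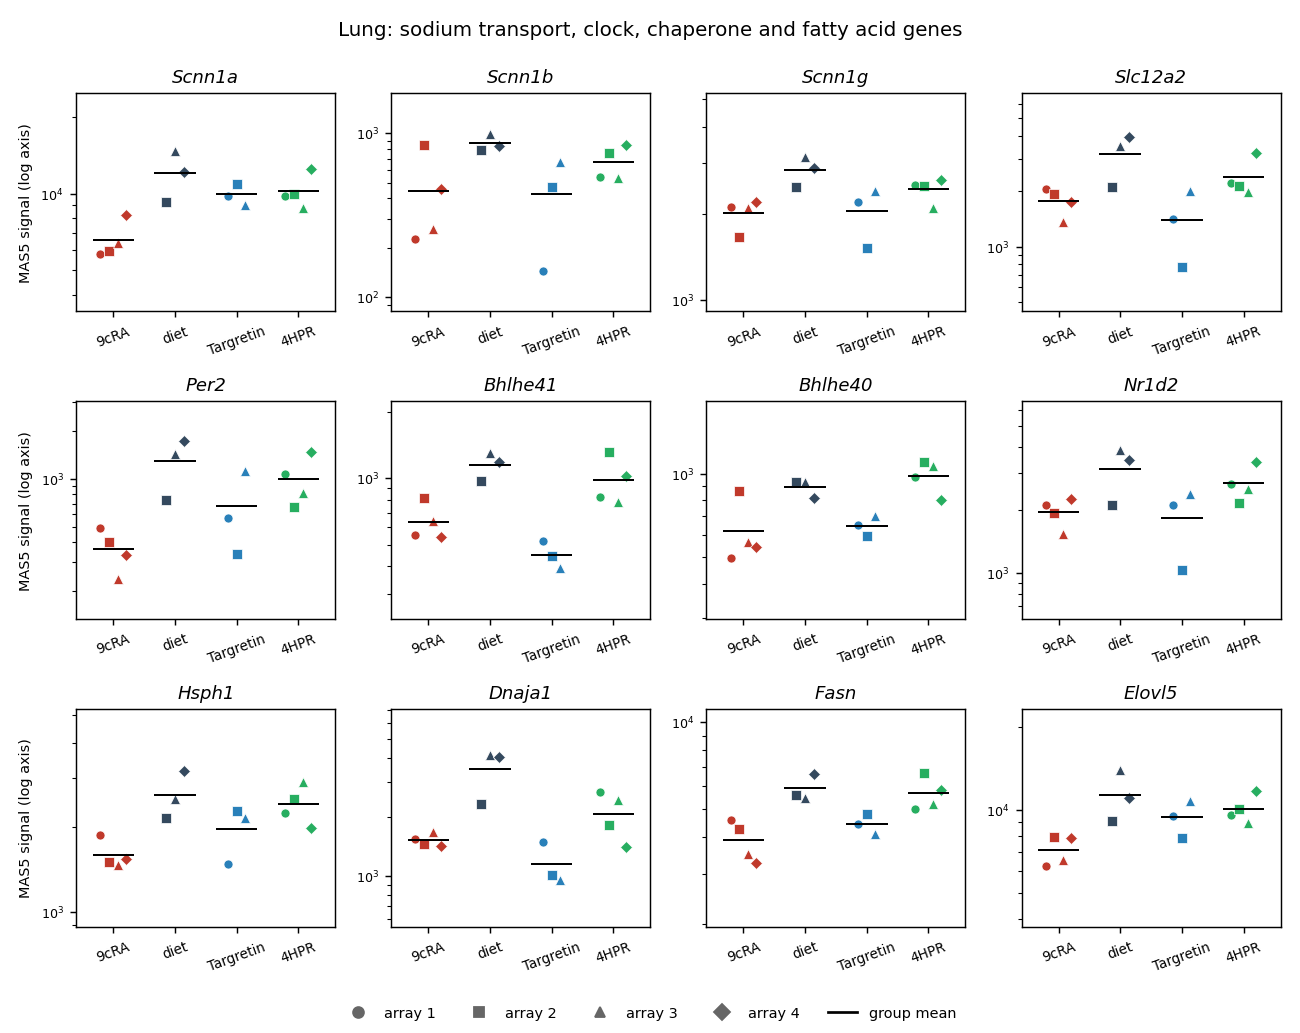
MAS5 signal on a log axis in the 14 lung arrays for 4 genes each of sodium transport (Scnn1a, Scnn1b, Scnn1g, Slc12a2) and the clock (Per2, Bhlhe41, Bhlhe40, Nr1d2), and 2 each of chaperones (Hsph1, Dnaja1) and fatty acid synthesis (Fasn, Elovl5). Each symbol is 1 array and each line a group mean; diet array 2 is often the lowest diet array, nearest to the 9cRA arrays.

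Promoters of 5 of these genes are printed because the clock and chaperone groups have known DNA elements that can be looked for. They were chosen after the values were seen, and come from RefSeq on the GRCr8 build, from 250 bases before the transcription start to 30 bases after it. Capitals mark an element where the window holds it: TTATGTAA, bound by the Dbp family, in Per2; CACGTG, the E-box of the clock activators, in Bhlhe41; and a heat shock element, here 3 units of GAA that alternate in strand (GAA, TTC, GAA) with 2 bases between them, on the opposite strand in Hsph1 and on the printed strand in Dnaja1. Scd is shown for the retinoid half-site AGGTCA, which its window does not hold. The windows are chr1:253231702-253231981 (Scd, minus strand), chr9:99496964-99497243 (Per2, minus strand), chr4:180569326-180569605 (Bhlhe41, minus strand), chr12:10427118-10427397 (Hsph1, plus strand) and chr5:60638154-60638433 (Dnaja1, plus strand).
Scd: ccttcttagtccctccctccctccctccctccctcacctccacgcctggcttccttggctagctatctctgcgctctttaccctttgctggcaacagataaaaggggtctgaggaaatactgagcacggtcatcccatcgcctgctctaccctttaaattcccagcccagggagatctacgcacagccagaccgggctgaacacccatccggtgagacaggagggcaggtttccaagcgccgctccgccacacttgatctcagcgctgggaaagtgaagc
Per2: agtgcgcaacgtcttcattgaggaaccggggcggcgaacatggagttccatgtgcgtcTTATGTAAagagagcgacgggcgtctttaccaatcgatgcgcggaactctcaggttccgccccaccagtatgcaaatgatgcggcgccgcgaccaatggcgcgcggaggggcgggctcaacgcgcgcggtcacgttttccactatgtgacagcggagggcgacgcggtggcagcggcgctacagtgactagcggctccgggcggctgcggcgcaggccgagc
Bhlhe41: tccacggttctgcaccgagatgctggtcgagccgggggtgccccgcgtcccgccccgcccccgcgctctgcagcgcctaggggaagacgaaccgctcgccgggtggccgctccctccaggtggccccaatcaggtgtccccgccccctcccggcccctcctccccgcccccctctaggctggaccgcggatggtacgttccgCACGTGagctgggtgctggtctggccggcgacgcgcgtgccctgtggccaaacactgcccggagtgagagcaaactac
Hsph1: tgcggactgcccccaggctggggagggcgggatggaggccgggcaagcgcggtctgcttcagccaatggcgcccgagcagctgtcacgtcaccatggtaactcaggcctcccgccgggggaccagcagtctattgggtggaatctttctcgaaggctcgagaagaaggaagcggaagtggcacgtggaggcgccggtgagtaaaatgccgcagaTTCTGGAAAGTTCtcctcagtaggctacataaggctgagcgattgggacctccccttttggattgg
Dnaja1: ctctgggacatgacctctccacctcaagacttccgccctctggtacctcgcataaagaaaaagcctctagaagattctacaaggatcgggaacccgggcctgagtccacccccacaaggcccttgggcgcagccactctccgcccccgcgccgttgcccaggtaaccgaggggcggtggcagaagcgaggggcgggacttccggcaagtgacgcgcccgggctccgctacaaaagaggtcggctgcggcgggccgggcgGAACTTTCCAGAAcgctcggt

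Both strands of each window, extended to 50 bases after the start, were searched, and the same was done for 33469 RefSeq promoters. The capitals in Per2 begin 192 bases before its start, those in Bhlhe41 48 before, those in Hsph1 36 before, and those in Dnaja1 10 bases after. CACGTG was found in 4 of the 8 clock genes with a promoter in the table (Bhlhe40, Bhlhe41, Nr1d1 and Tef) and in 6.42% of all promoters. TTATGTAA was found in 1 of these 8, Per2, and in 0.893% of all. The heat shock element was found in 4 of 23 chaperone genes (Dnaja1, Hspd1, Hspe1 and Hsph1) and in 0.798% of all. AGGTCA was found in 1 of the 10 genes among the 15 with the smallest p that have a promoter there, Dnaja1, against 16.2% of all, and 2 copies in direct repeat with a gap of 1 to 5 bases in 0 of 10, against 0.105% of all. A match is a description of these letters only.

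The rest of the 15 smallest p belonged to genes of unrelated function. Ndufab1, the acyl carrier protein of mitochondria, was at 812.2, 607.2, 560.9 and 1010.2 against 1545.5, 1896 and 1281.8 (-1.06 ± 0.23), while its second probe set differed by -0.20. Phf3, a protein that docks on RNA polymerase II, was at 556.9 to 717.7 against 1009.8 to 1235.6 (-0.79 ± 0.18). Ccdc141 was at 211.9 to 330 against 418.1 to 849.8 (-1.25 ± 0.30) and passed without diet array 2 (adjusted p = 0.0399). On the higher side, Cox6c, a subunit of cytochrome c oxidase, was at 872.7, 572.4, 556.1 and 753.5 against 273.5, 140 and 160.9 (1.68 ± 0.39), with overlap on its second probe set (0.83). Lamp1, a lysosomal membrane protein, was separated on 1 probe set (1.43 ± 0.34), with a difference of -0.04 on the other. Ngfr, the low-affinity neurotrophin receptor, was at 3362.4 to 4494.1 against 1678.7 to 2571.1 (0.82 ± 0.19), with 0.31 and overlap on the other. Of the 15, 10 were lower and 5 higher, their adjusted p was 0.306 to 0.312 in limma, and 7 passed without diet array 2.

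A few transcripts of mammary gland and fat were higher in 9cRA lung than in diet lung. Some were also above diet lung with another agent. Csn1s1, the alpha-S1 casein of milk, had signals of 4882, 916, 550.5 and 382.9 on the 9cRA arrays and 39.8, 97.6 and 92.9 on the diet arrays, a difference of 3.22 ± 0.74 (adjusted p = 0.306), and its signal in 9cRA mammary gland was 22416 to 102075. The casein Csn3 was at 4351.3, 447.8, 982.7 and 713 against 603.6, 351.5 and 212.8 (1.51 ± 0.58), and Glycam1, a mucin of milk, at 1159.4, 421.7, 519.6 and 480.1 against 151.8, 355.7 and 160.7 (1.36 ± 0.64). Array 1 of the 9cRA group was the highest for each of the 3, and without it Csn3 differed by 0.86. Of 7 milk and mammary genes tested, of 11 on the array, 2 were separated upwards (28.6%, against 8.07% of all probe sets) and 0 downwards, with a median of 1.13. This list was added after the values were seen, and a gene could pass the filter on low signal through the 9cRA arrays alone. Its share and median therefore describe the chosen genes only and are no support for a rise. Csn2 (127.4 to 2295.3 against 33.3 to 181.2) and Wap (48.3 to 711.8 against 49.9 to 150.4) overlapped. The summed signal of the list was 16975 to 27741 in 9cRA lung and 18104 to 20567 in diet lung. Adrb3, the beta-3 adrenergic receptor of fat cells, was at 459.1, 504.3, 701.4 and 831.9 against 350.5, 137.6 and 75.1 (1.71 ± 0.42, adjusted p = 0.306), and passed without diet array 2 (2.19, adjusted p = 0.0259). Car3, the carbonic anhydrase of fat and muscle, was at 1683.8, 1074.9, 634.5 and 727.5 against 265.6, 459.1 and 392.1 (1.31 ± 0.33). In Targretin lung Csn1s1 was at 45.9 to 303.3, Adrb3 at 608.2 to 1441.4 and Car3 at 540.6 to 866.2. In 4HPR lung they were at 243.2 to 953.1, 324.9 to 725.3 and 311.1 to 559.7, in that order. Adrb3 was at 396.8 to 582.7 in diet liver. Of 12 fat cell markers tested, 7 had a difference above 0 (58.3%, against 56.7% of all probe sets). Adrb3 and Car3 were the 2 separated upwards (16.7%, against 8.07%), and Pparg and Lpl the 2 separated downwards (16.7%, against 5.61%). Of these fat cell markers, 3 had an unadjusted p under 0.05 (25%, against 11.1%), all higher. Aqp7, their glycerol channel, differed by 0.62 and Fabp4, their fatty acid binding protein, by -0.24, both with overlap, and the summed signal of 12 markers was 19786 to 25126 in 9cRA lung and 19867 to 23836 in diet lung. The part of mammary or fat tissue in these values was not tested.

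Liver transcripts were present on all 4 arrays of 9cRA lung. Albumin, Alb, had signals of 4795.2, 3796.3, 3388.3 and 5612.5 on the 9cRA arrays and 14890, 114.6 and 152.4 on the diet arrays, so 2 diet arrays were far below the 9cRA range and 1 was far above it. The difference was 2.52 ± 1.17 with all arrays (adjusted p = 0.45) and 4.67 without diet array 2 (adjusted p = 0.00252). Of 23 liver genes tested, diet array 2 was the highest of the 7 arrays for 22, and the median of the 9cRA arrays exceeded diet arrays 3 and 4 for 20. The median difference of the list was 0.57 with diet array 2 and 1.36 without it. Targretin lung had summed liver signals of 18849 to 22762 and 4HPR lung 46789 to 240426, so the level differed between arrays within every comparison made here. Other genes were also high on the 9cRA arrays and on diet array 2, and low on the other 2 diet arrays, without being rich in liver. Rpl26, a ribosomal protein, was at 36144 to 45141 on the 9cRA arrays and at 33690, 10197 and 8701.3 on the diet arrays (1.49 with diet array 2, 2.10 and adjusted p = 0.00866 without it), while its other, brighter probe set differed by -0.10 and overlapped. Cox5b, a subunit of cytochrome c oxidase, was at 3579.7 to 5207.7 against 3353.1, 1227.5 and 1457.2 (1.18 and 1.61, adjusted p = 0.0152 without it), while its brighter probe set differed by -0.30 and overlapped. The part of liver transcripts or of diet array 2 in the remaining differences was not tested beyond these fits.

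**Figure D4:**
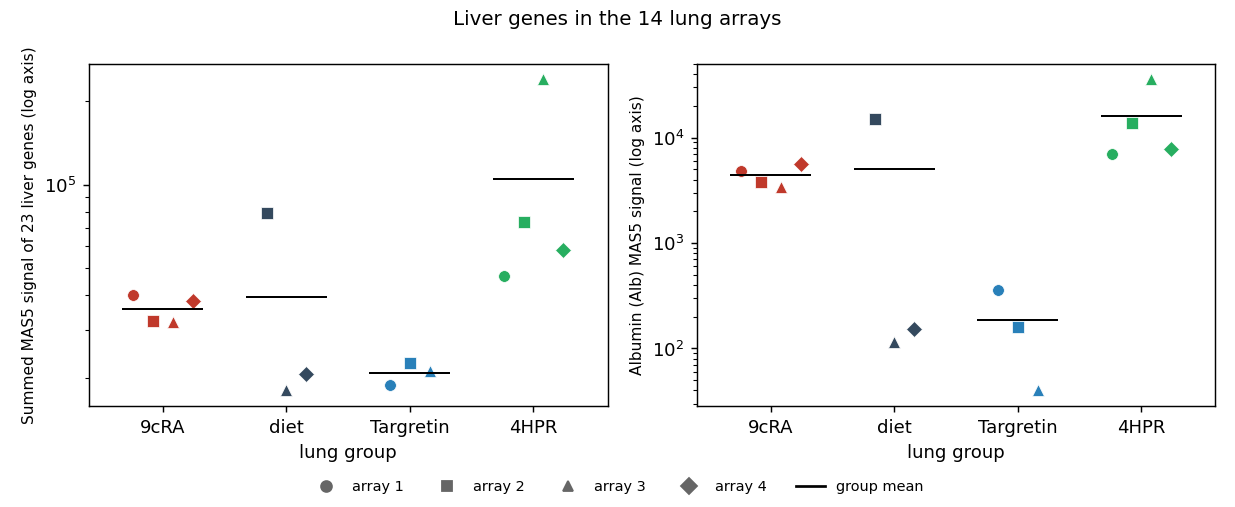
Left, the summed MAS5 signal of 23 liver genes and, right, the signal of albumin, both on log axes, in the 14 lung arrays by treatment; each symbol is 1 array and each line a group mean. Diet arrays 3 and 4 lie with Targretin lung, diet array 2 lies with 4HPR lung, and the 4 arrays of 9cRA lung lie between them.

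Markers of lymphocytes mostly had differences above 0, with few separated groups. Cd79b, the signalling chain of the B cell receptor, was at 1446.6, 866.6, 1037.9 and 1190.1 against 748.7, 383.6 and 725.9 (0.87 ± 0.26). Of 3 B cell markers tested, 2 had a difference above 0 and 1 below, and only Cd79b was separated. Their summed signal overlapped, at 6437.7 to 7865.8 in 9cRA lung and 6657.1 to 7452 in diet lung. Of 19 T and natural killer cell markers tested, 17 had a difference above 0 (89.5%, against 56.7% of all probe sets), 2 were separated upwards (10.5%, against 8.07%), namely Klrk1, an activating receptor of natural killer cells, and Cd4, and 0 downwards, and the median was 0.49. Il2rb, the beta chain of the interleukin-2 receptor, was at 1563.1, 1996.8, 2181.9 and 1748.9 against 1666.6, 1020.6 and 931.2 (0.65 ± 0.22), with overlap through diet array 2 and 0.90 without it, and Cd3g, a chain of the T cell receptor complex, at 394.6 to 1046.4 against 953.1, 62.4 and 236.5 (1.30 ± 0.60, and 2.16 without diet array 2, adjusted p = 0.0599). The summed signal of the 19 T and natural killer cell markers was 18806 to 36344 in 9cRA lung and 18317 to 25630 in diet lung, so the ranges overlapped. S100a8 and S100a9, the calprotectin of neutrophils, differed by 0.55 ± 0.22 and 0.61 ± 0.23. Of 7 neutrophil markers tested, 4 had a difference above 0 and 3 below, Padi4 being the lowest at -0.69, and 1, S100a8, was separated. Psmb8 and Tap1, of the immunoproteasome and of peptide transport, differed by 0.59 ± 0.23 and 0.57 ± 0.26, both with overlap through diet array 2, and by 0.84 and 0.76 without it. Of 13 interferon response genes 0 were separated. C1qc, a complement gene of macrophages, was at 1590.1 to 2125.3 against 1226.6 to 1429.5 (0.46 ± 0.19), the only 1 of 12 macrophage markers with separated groups.

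Vascular and signalling genes gave a small number of separated groups. Selp, the P-selectin that captures leukocytes on endothelium, was at 670.1, 716.9, 415.7 and 383.7 against 283.7, 227.8 and 250 (0.96 ± 0.26), and Thbd, the endothelial thrombomodulin, at 2114 to 3806.5 against 1594.5 to 2110.1 (0.60 ± 0.22). Lyve1, the hyaluronan receptor of lymphatic vessels, overlapped at -0.90 ± 0.30. Of 14 endothelial markers 2 were separated upwards (14.3%, against 8.07% of all probe sets) and 0 downwards. Socs3, a brake on cytokine signalling, was at 662.8, 408.2, 264.8 and 300.1 against 215.4, 130 and 159.3 (1.06 ± 0.46). Of 58 growth factors and receptors, 6 were separated upwards (10.3%, near the 8.07% of all probe sets) and 1 downwards (1.72%, against 5.61%). Vegfd, a lymphatic growth factor, was at 884.5, 741.8, 524 and 590.9 against 261.5, 406.6 and 165.9 (1.24 ± 0.46), and Shh, the epithelial hedgehog ligand, at 1002.1 to 1206.3 against 641 to 778 (0.59 ± 0.20). Tgfa, a ligand of the EGF receptor, was the one separated downwards, at 424.9, 152.1, 339.9 and 550.8 against 646, 740.4 and 638.9 (-0.93 ± 0.31). Errfi1, an inhibitor of the same receptor, was lower too, at 1259.7 to 2328.5 against 2927.6 to 3757.5 (-0.93 ± 0.30).

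Matrix genes were separated about as often as other probe sets. Of 32 matrix genes, 2 were separated upwards (6.25%, against 8.07%) and 3 downwards (9.38%, against 5.61%) around a median of -0.009; Tnc, tenascin C, was at 2693 to 3843.1 against 2034.1 to 2373.4 (0.49 ± 0.16), and Lama3, a laminin chain of epithelial basement membrane, at 1250.3 to 1574.7 against 1915.8 to 2443.4 (-0.61 ± 0.17). Among 22 proteases and their inhibitors 3 were separated upwards (13.6%, against 8.07%) and 0 downwards, including the inhibitors A2m (0.69 ± 0.20, with 0.43 and -0.22 on its other probe sets) and Timp1 (0.56 ± 0.20). Actg2, the gamma actin of smooth muscle, was at 3712.8, 3193.9, 3671.2 and 3742.6 against 2162.5, 2093.2 and 2161.7 (0.73 ± 0.20), and Tagln, transgelin, at 7992.6 to 9836.1 against 4826.9 to 7273 (0.48 ± 0.18, and 0.29 without diet array 2). The brightest probe sets of Acta2 and Myh11 overlapped at 0.29 and 0.18 (0.03 and -0.16 without diet array 2), their other probe sets differed by 0.64 to 1.56, and the summed signal of 13 smooth muscle markers was 60251 to 83341 in 9cRA lung and 51553 to 68221 in diet lung. Of 30 cell cycle genes 5 were separated upwards (16.7%, against 8.07%) and 0 downwards (against 5.61%), with a median of 0.31. Cdc20, an activator of the anaphase-promoting complex, was at 541.1, 780.7, 680.2 and 370.9 against 274.5, 286 and 296 (0.92 ± 0.32).

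Enzymes of detoxification and energy supply were mixed. Gsta1, a glutathione transferase whose probe set may share signal with close family members, was at 5479.1 to 7740.4 against 7941.2 to 12568 (-0.70 ± 0.20), and Txnrd1, thioredoxin reductase, at 3519.3 to 4193.9 against 4404.7 to 5593.2 (-0.42 ± 0.15, with 0.03 on its dimmer probe set), whereas Gstm2 was higher at 5271.3 to 7462.1 against 4406.8 to 5207.9 (0.46 ± 0.16). Of 31 antioxidant genes 5 were separated downwards (16.1%, against 5.61% of all probe sets) and 2 upwards (6.45%, against 8.07%). Of 39 genes of fatty acid oxidation and PPAR targets 5 were separated downwards (12.8%, against 5.61%) and 0 upwards. Among the 5 were Acsl4, an acyl-CoA synthetase (-0.69 ± 0.24, with 0.05 and overlap on its second probe set), and Echs1, an enoyl-CoA hydratase (-0.41 ± 0.16). Of the 39 genes, 20 had a difference above 0 and 2 had an unadjusted p under 0.05 (5.13%, against 11.1%). The median of the 39 was 0.078. Of 25 glycolysis genes 2 were separated downwards (8%, against 5.61%) and 0 upwards, with a median of 0.001. Among the 2 was Aldoc, aldolase C, at 76.4, 65.7, 198.5 and 292.1 against 307.1, 479.6 and 343.7 (-1.23 ± 0.45). Of 31 subunits of oxidative phosphorylation 2 were separated downwards (6.45%, against 5.61%) and 0 upwards, and of 37 xenobiotic genes 1 each way (2.7%). Cyp2a3, a cytochrome P450 of the airways, overlapped at -1.44 ± 0.65. None of these lists held a gene that passed with all arrays: 0 of the 667 genes on the lists did, and 91 had an unadjusted p under 0.05 (13.6%, near the 11.1% of all probe sets).

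Scd was the only probe set for which the 9cRA response passed the test of a difference between lung and liver. In liver its signals were 10143, 5955.1, 16240 and 8052 on the diet arrays and 33714, 36869, 21767 and 46083 on the 9cRA arrays, so it rose by 1.82 there (limma, adjusted p = 0.00124, 1 of 314 passing among 6084 in liver, or 5.16%), while in lung it was lower on every array. The lung difference minus the liver difference was -3.33 ± 0.49, with a 95% interval of -4.32 to -2.35 (adjusted p = 0.000258). Over 21 alternatives it lay between -3.59 and -3.11, with an adjusted p of 2.3e-06 to 0.00356, and it was 1 of 5935 to pass (0.0168%). In mammary gland Scd was at 27964 to 103147 with 9cRA and 76370 to 108430 with diet, a difference of -0.38. Among the next by p for lung against liver were Gsta1 (-1.07 ± 0.23, adjusted p = 0.0814) and Prim1, a DNA primase subunit (2.03 ± 0.45, adjusted p = 0.0814), neither of which passed. Without diet lung array 2, 28 probe sets passed, 3 without 9cRA liver array 1 or 4, 2 without 9cRA liver array 2 or diet liver array 2 or 4, and 1 without any other array of the 4 groups.

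**Figure D5:**
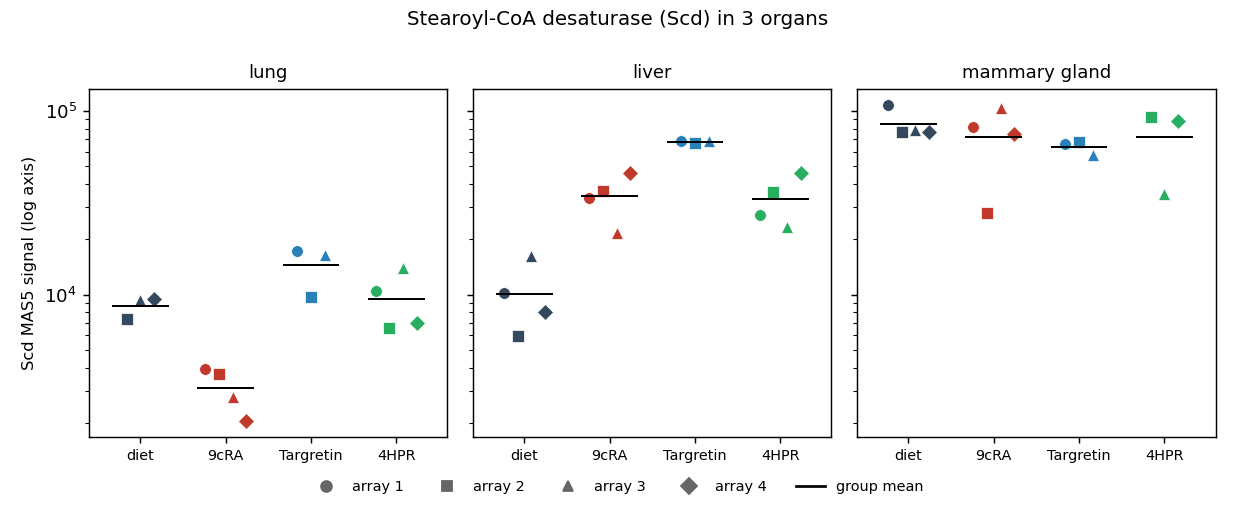
MAS5 signal of Scd on a log axis in lung, liver and mammary gland by treatment; each symbol is 1 array and each line a group mean. The 9cRA arrays are the lowest group in lung, at 2055 to 3929, and lie above the diet arrays in liver, at 21767 to 46083.

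Between lung and mammary gland 0 probe sets (0%) differed in their 9cRA response, with 432 at an unadjusted p under 0.05 and a smallest adjusted p of 0.374 in limma. The first was Cyp7b1, an oxysterol hydroxylase, at 561.9, 486, 588.8 and 375.9 in 9cRA lung and 230.1, 23.2 and 200.7 in diet lung, with a lung difference minus mammary difference of 1.84 ± 0.43. Cyp51, lanosterol demethylase of the cholesterol pathway, followed with 1.28 ± 0.36 (adjusted p = 0.5) and had separated groups in lung on that probe set (897.5 to 1358.3 against 417.4 to 866.2, 0.92 ± 0.27), with 1.39 on another separated probe set and 0.41 and 0.22 with overlap on the rest. Without diet lung array 2, 52 probe sets passed.

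Set against the other agents, 9cRA lung again differed in Scd. The doses and, for Targretin, the route were not the same, so the values are those of each treatment as given, and all comparisons with diet share the same 3 diet arrays. Scd was at 17241, 9682 and 16486 in Targretin lung and at 10506, 6552.2, 13930 and 6999.5 in 4HPR lung, above every 9cRA array. The difference from Targretin was -2.20 ± 0.29 (95% interval -2.83 to -1.58, adjusted p = 0.0124), and Scd was 1 of 5935 (0.0168%) to pass. It no longer passed without 9cRA array 3, 9cRA array 4 or Targretin array 1, each of which left 0 passing, and 5 probe sets passed without Targretin array 3. Without Targretin array 2, the array with the high actin ratio, it was -2.47 (adjusted p = 0.00591). Cyp26b1 (-3.28 ± 0.58) and Defb4, a defensin (0.94 ± 0.16), came next with an adjusted p of 0.0977. Against 4HPR 0 (0%) passed, with 566 at an unadjusted p under 0.05. Lcat had the smallest adjusted p, 0.0564, at -2.47 ± 0.37, and its 4HPR signals were 533.7, 417.6, 1598.3 and 523.7. Scd differed from 4HPR by -1.58 ± 0.27 (adjusted p = 0.112) and Cyp26b1 by -2.88 ± 0.54 (adjusted p = 0.127).

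Some genes of the clock and chaperone groups were low with Targretin as well. Targretin against diet passed 142 probe sets in lung (2.39%), among which Dnaja1 fell by 1.55 ± 0.27 (adjusted p = 0.0269) and Bhlhe41 by 1.28 ± 0.24 (adjusted p = 0.0269), and Adrb3 rose by 2.23 ± 0.45 (limma, adjusted p = 0.0277). That count was 155 without Targretin array 2, 20 and 460 without Targretin arrays 1 and 3, and 299, 1 and 0 without diet arrays 2, 3 and 4. Dnaja1, Bhlhe41 and Adrb3 passed without Targretin array 2 (-1.48, -1.28 and 1.89), and none of the 3 passed without diet array 3 or diet array 4; Adrb3 did not pass without Targretin array 1 either. The corresponding differences in 9cRA lung were -1.13, -0.83 and 1.71, and in 4HPR lung -0.73, -0.24 and 1.44, of which none passed; 4HPR against diet passed 0 probe sets (0%), with 273 at an unadjusted p under 0.05. Scnn1a was at 9056.1 to 10902 with Targretin and 8771.1 to 12481 with 4HPR, and each of these 7 arrays was above all 4 arrays of 9cRA lung.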

How the data were processed

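Values are the intensity of each probe set as deposited by the authors: MAS5 signal on a linear scale, per the submitters' processing notes, with no version given in the sources used here. Every array had a 2% trimmed mean near 1502, so no further scaling was applied. Of 8740 probe sets, 7006 had 1 gene symbol in the platform annotation, 308 had several and 1426 were not listed. Signals became log2(signal + 38.1), the pseudocount being the 10th percentile; differences are on that scale, which understates low genes. The 5935 tested exceeded the 40th percentile of their array on at least 3 lung arrays.

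All 14 lung arrays were fitted with limma 3.58.1 in R 4.3.3 (lmFit, eBayes with trend, 10 residual degrees of freedom) and adjusted by Benjamini-Hochberg; differences between organs came from a fit of all 43 arrays, and values in liver alone from a fit of that organ. Precision is limited by how many arrays each group has. A gene list used 1 probe set per gene, that of highest mean signal. Groups are called separated where no array overlaps. Members and lists were chosen with earlier results of these data known. Named genes were the 15 smallest p, up to 3 members of each list, the retinoid genes, and the 8 smallest p of each further comparison. Further list members were named because their groups were separated or their unadjusted p was under 0.05, so they were chosen after their values were seen. Acta2, Aqp1, Aqp5, Csn2, Dbp, Fabp4, Hlf, Myh11, Nr1d1, Tef, Padi4 and Wap, and genes named for passing without diet array 2, were added after their values were seen. The lists of milk and of proteasome genes were also added then. The fitting steps were tested on simulated data. Array numbers are shared between the groups, but the deviations of same-numbered arrays correlated at -0.079, 0.012 and -0.041, so arrays were not paired.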

Additional observations from a re-analysis of the deposited data

Results flagged for a closer look

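The response of Scd to 9cRA differed between lung and liver by a test of the difference itself: the lung difference minus the liver difference was -3.332 on the log2 scale (limma, adjusted p = 0.000258), with lower signal on 4 of 4 arrays in lung and higher signal on 4 of 4 in liver. The next results are single arrays of 9cRA lung that lay far from the other 3, with the gap given as a share of the group's range. The gap was 0.878 for Actg2, where array 2 was low, 0.863 for Cd4, where array 2 was high, 0.887 for Hspb2, where array 1 was high, 0.934 for Idi1, where array 3 was high, and 0.882 for Lpl, where array 3 was low. Chance gives such a gap in about 1 of 20 groups, and 352 of the 5935 probe sets tested had one (5.93%), as did 5 of the 94 probe sets of the genes named.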

How the results depend on the processing

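The count for 9cRA against diet in lung, 0, became 1 with no filter on low values, with only the arrays of the groups compared and with eBayes without a trend, 964 with array quality weights, and 0 to 38 with 1 array left out, where 38 needed the loss of diet array 2. Of alternatives added after the data were seen, leaving out diet array 2 and Targretin array 2 gave 212, diet array 2 and liver-rich probe sets 14, and weights without diet array 2 938. For genes on the lists, 0 became 128, 34, 3 and 123 under weights and these 3 settings, and 0 to 10 with 1 array left out. Against Targretin the count of 1 became 2 with quantile normalization, no filter and the replicate block, and 0 to 5 with 1 array left out; against 4HPR, 0 became 1 with quantile normalization or a pseudocount 4 times smaller, 5 with weights and 0 with any array left out. Between lung and liver, 1 became 2 with no filter, 120 with weights, 5 with only the arrays compared and 1 to 28 with 1 array left out; between lung and mammary gland, 0 became 104 with weights and 0 to 52. The replicate block gave 0 for 9cRA against diet (548 at an unadjusted p under 0.05) and, beside the count against Targretin given above, changed no other. Of 90 named genes recomputed, 87 kept their direction in every alternative run. Many of them were named for a small p or separated groups. With separated groups the loss of 1 array cannot turn the sign, so this count is no support for their direction. Cyp26b1 turned from -0.30 to 0.491 with weights, 0.713 in both fits without diet array 2 that drop a second set, 0.643 with weights without it, and -0.875 to 0.713 with 1 array left out. Rxra turned from 0.08 to -0.105 with quantile normalization, -0.196 with weights, -0.174 in those 2 fits, -0.066 with weights without diet array 2, and -0.174 to 0.48 with 1 array left out. Rxrg turned from -0.05 to 0.111, 0.251, 0.248 and -0.27 to 0.251 under the same settings, quantile normalization excepted. The cause of these shifts was not tested. The difference of 3.22 for Csn1s1 did not pass with all arrays. Its signals were 382.9 to 4882 in 9cRA lung and 39.8 to 97.6 in diet lung.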
